A study of Mus musculus with 2 samples.

Results

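Mrc1 encodes the mannose receptor CD206, an endocytic lectin by which lung interstitial macrophages are commonly divided. Interstitial macrophages live in the lung tissue outside the air spaces, where they make the complement protein C1q, take up debris and present antigen. CD206+ interstitial macrophages are usually described beside vessels, with genes such as Lyve1, Folr2, Cd163 and Pf4, and CD206- cells as a population marked more by genes of antigen presentation. Control macrophages with much Mrc1 RNA were compared here with control macrophages in which no Mrc1 RNA was found.

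The cells came from IM-DTR mice (CD45.1+CD45.2+) that were irradiated and reconstituted with CD45.1-CD45.2+ bone marrow, Tgfbr2 fl/fl without Cre for the control group and LyzM-Cre Tgfbr2 fl/fl for the Tgfbr2-KO group. LyzM-Cre is driven by the lysozyme gene Lyz2 and so acts in myeloid cells broadly, not in interstitial macrophages alone. Both groups carried the floxed allele, and hosts of both received 50 ng diphtheria toxin 10 days before the lungs were taken. Donor lung cells were sorted as Ly6G-, SiglecF-, CD11b+ and CD64+ with low side scatter. Cells of 5 mice were pooled per genotype, marked with a hashtag (an antibody that carries a DNA barcode) and loaded together for 1 droplet-based 3′ RNA library. There is thus 1 control pool, no replicate and no significance test. The labels give no age for the mice.

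Only the hashtag tells which pool a cell came from. The barcodes are shown because they define the groups (capitals mark the whole barcode).
B0301, control: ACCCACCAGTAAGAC
B0303, Tgfbr2-KO: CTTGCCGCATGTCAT

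Of 4887 called cells, 1933 carried the control hashtag. Of these, 1896 reached 1000 unique molecular identifiers (UMIs, counts of captured RNA molecules) and 500 genes and had no more than 10% of UMIs from mitochondrial genes. At least 5 UMIs of C1qa, C1qb and C1qc together were found in 1748 of them, or 92.2% (95% Clopper-Pearson interval 90.9 to 93.4), which are called macrophages. The 1269 macrophages with 5000 to 12000 UMIs were then divided by Mrc1. At least 4 Mrc1 UMIs were found in 631 cells, or 49.7% (46.9 to 52.5), called Mrc1-high. No Mrc1 UMI was found in 160 cells, or 12.6% (10.8 to 14.6), called Mrc1-absent. Together they make the 791 cells compared. The other 478 macrophages held 1 to 3 UMIs.

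The groups were chosen by measured Mrc1, so their Mrc1 levels only describe the rule. Mrc1-high cells held 4 to 82 UMIs of Mrc1 with a median of 8, and their summed level was 1456 UMIs per 1000000 gene UMIs (UPM). Just inside and outside the thresholds lay 196 cells with 4 or 5 UMIs, 148 cells with 3 and 183 cells with 1. A count of 0 does not mean that a cell has no Mrc1 RNA: in an absent cell of median depth it allows up to 408 UPM, with 3 counts as the limit. Within the depth range the groups were not equal in depth, with a median of 8313 UMIs and 2331 genes per Mrc1-high cell and 7357.5 UMIs and 2074 genes per Mrc1-absent cell. The median mitochondrial share was 2.63% and 2.68%, and the median C1q count 109 and 91.5 UMIs. Summed over cells, 5255196 and 1198628 gene UMIs lie behind the levels.

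A level is the sum of a gene's UMIs in a group, per 1000000 gene UMIs of that group (UPM), and values are given for Mrc1-high cells before Mrc1-absent cells. Intervals in brackets are exact 95% intervals (Poisson for levels, conditional binomial for ratios, Clopper-Pearson for shares of cells), which reflect counting error and leave out differences between mice, which the pool does not show. Ratios were taken for genes with 100 or more UMIs over both groups and 100 UPM in at least 1 of them. Such genes are called counted. Mrc1, the C1q genes, mitochondrial genes and ribosomal genes were set aside. Of 1505 counted genes, 286 exceeded a ratio of 1.5 in favour of Mrc1-high cells, which is 19%. Another 81, or 5.38%, did so in favour of Mrc1-absent cells, so that 24.4% lay past 1.5-fold in either direction. The median log2 ratio over all counted genes was 0.09. The counts given below for lists of genes are to be read beside these shares, and no list was tested against them. All these ratios follow from a division made in the same cells, and they are given as descriptions.

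Genes higher in Mrc1-high cells included a set known from perivascular macrophages, several chemokines, growth factors and genes of haem and iron handling. Genes lower there included galectin 3, the tetraspanin Cd9, the elastase Mmp12, CD11c (Itgax) and the inflammatory cytokine Il1b. The MHC class II genes lay at similar levels in both groups. Among counted genes, ratios reached further on the higher side, as the plot of ratios against levels shows. The 15 highest genes were 5.31-fold to 79.4-fold higher, with Mmp9 set to a floor of 3 counts in absent cells. The lowest counted gene named here, H2-M2, was 2.93-fold lower. Genes under the minimum are left out of this, among them Cd207, with a log2 ratio of -2.02, and Lyve1, with 6.19.

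**Figure D1:**
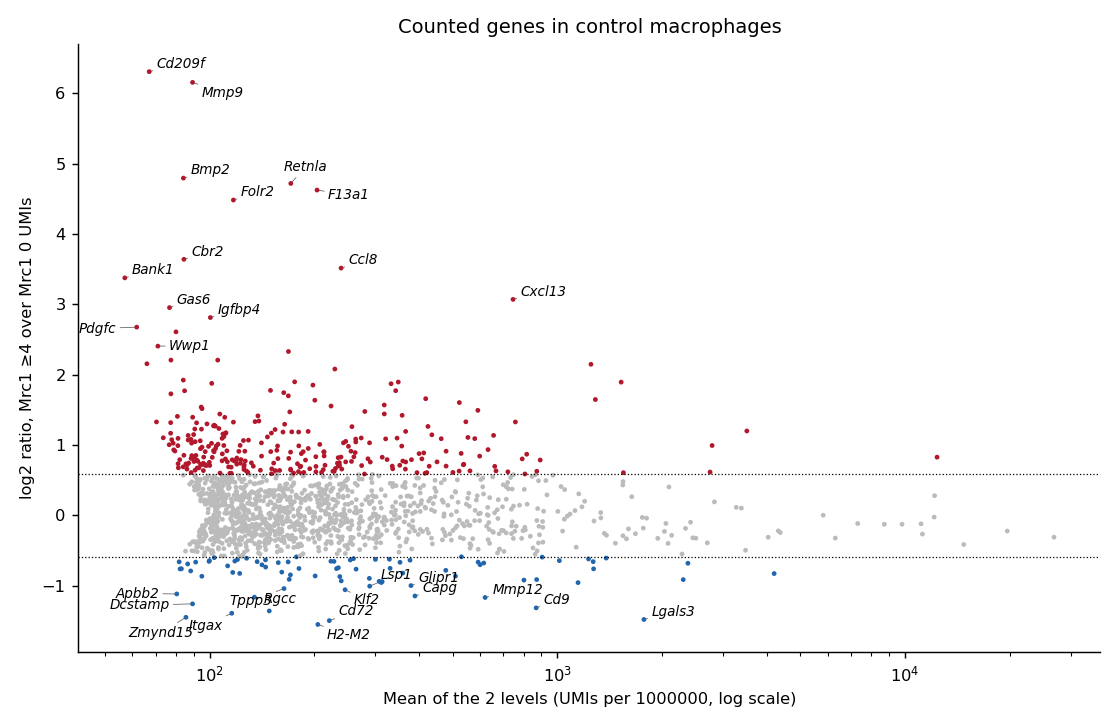
Each point is 1 of 1505 counted genes. The x axis is the mean of its levels in Mrc1-high and Mrc1-absent control cells in UMIs per 1000000 (log scale), the y axis the log2 ratio of high over absent, and dotted lines mark 1.5-fold. Red points (286) are higher, blue points (81) lower, and names are given for 14 of the 15 highest and for the 15 lowest; Mmp9, with no UMI in absent cells, is drawn at its floor of 3 counts.

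Among the genes of perivascular macrophages, Folr2 (folate receptor beta, ENSMUSG00000032725, chromosome 7, 101839988 to 101857190 of GRCm38.p6) was present at 224 UPM (212 to 237) in Mrc1-high cells and 10.0 UPM (5.17 to 17.5) in Mrc1-absent cells. That is 22.4-fold higher (12.8 to 43.5). Single cells were far from uniform: 38.7% (34.9 to 42.6) of Mrc1-high cells held a Folr2 UMI, with a median of 0 and a maximum of 28, against 5.00% (2.18 to 9.61) of absent cells with a maximum of 4. Cells thinned to 5000 UMIs gave 34.9% and 3.75%. As a background, 2.63% held a Folr2 UMI among 190 cells of both pools that had at most 1 C1q UMI and a median of 9283.5 UMIs. Of these 190 cells 44 were control and 146 Tgfbr2-KO, so that this background is mostly that of the other genotype. Cells with 1 Mrc1 UMI held more Folr2 than those with none, and with both taken as the absent group the log2 ratio of 4.48 became 3.07.

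F13a1, the A subunit of coagulation factor XIII, had 392 UPM (375 to 409) against 15.9 UPM (9.54 to 24.8), a 24.7-fold excess (15.8 to 41.1). A UMI of it was found in 41.8% of Mrc1-high and 5.62% of absent cells. F13a1 is also a gene of monocytes, and 38.4% of the cells with at most 1 C1q UMI held it. Cbr2, a carbonyl reductase, had 156 UPM (146 to 167) against 12.5 UPM, 12.5-fold more (7.52 to 22.4). Gas6, a bridge between dying cells and their receptors on phagocytes, had 136 UPM (126 to 146) against 17.5 UPM (10.8 to 26.8), 7.75-fold more (5.03 to 12.6). The share of cells with a Gas6 UMI was 40.7% against 10.6%, and none of the 190 cells with at most 1 C1q UMI held one.

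Cd209f is a lectin of the mouse SIGN family (chromosome 8, 4102784 to 4105838). It had the highest ratio of the counted genes, with Mmp9 taken at its floor, but on few absent UMIs. Its level was 132 UPM (123 to 143) on 696 UMIs in Mrc1-high cells and 1.67 UPM (0.202 to 6.03) on 2 UMIs in absent cells, a ratio of 79.4 (21.9 to 657). Only 12.7% of Mrc1-high cells held it, and 47.0% of its UMIs came from 10 cells. Its log2 ratio of 6.31 was 4.45 at 5000 to 8000 UMIs. The paralog Cd209g had 58.6 UPM against no UMI, a ratio of 23.4 with 3 counts as the floor over the group. Reads of Cd209 paralogs may be divided between them.

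Lyve1, a hyaluronan receptor, had 61.1 UPM (54.6 to 68.1) against 1 UMI in all absent cells (0.834 UPM), a ratio of 73.2 (13.05 to 2901). At 8000 to 12000 UMIs its log2 ratio of 6.19 was 3.62. The haemoglobin scavenger receptor Cd163 had 52.9 UPM against 1.67 UPM on 2 UMIs, a ratio of 31.7 (8.69 to 263). Cd209g, Lyve1 and Cd163 all stayed under the level required of a counted gene.

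More of these genes were found in many cells of both groups. Pf4, the chemokine-like platelet factor 4, had 2039 UPM (2001 to 2078) against 459.7 UPM (422 to 499.7), a 4.44-fold excess (4.07 to 4.84), and 84.9% and 57.5% of cells held it. Selenop, which carries selenium, had 1951 against 622 UPM. The scavenger receptor Stab1 had 160.2 against 60.9 UPM, and Fcgrt, the Fc receptor that salvages IgG, 185 against 117 UPM. The ratio of Fcgrt was near the threshold and missed it in several alternatives, for instance with a log2 ratio of 0.58 without the depth range. The growth factor Igf1, of the same list, was level between the groups with 182 UPM (170.2 to 193) and 179 UPM (155 to 204).

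Of the 20 genes listed for CD206+ interstitial macrophages, 11 were counted. All but Igf1, that is 10, were past 1.5-fold on the higher side, and the median log2 ratio was 2.41. A gene seen mainly in Mrc1-high cells passes the minimum only through them, and the list was drawn up with results of these cells known, so these counts describe the list and support nothing. Cells held from 0 to 19 of the 20 genes with a median of 5 in the Mrc1-high group, and from 0 to 11 with a median of 3 in the absent group.

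Mrc1-high cells were not uniform in these genes. Of the 7 genes Folr2, Cd209f, F13a1, Cbr2, Gas6, Cd163 and Lyve1, chosen after their values were seen, 39.6% of Mrc1-high cells held none, 35.02% at least 3 and 18 cells all 7. In absent cells 80.0% held none, and 3 cells (1.88%) held at least 3. Folr2 and F13a1 were often found in the same cell: 202 of the 244 Mrc1-high cells with Folr2 held F13a1, which is 82.8%, against 16.0% of those without Folr2. Of the 80 cells with Cd209f, 71 held Folr2. Mmp12, in contrast, was found in 15 of the 244 cells with Folr2 (6.15%) and in 37.0% of the Mrc1-high cells without it. H2-M2 was found in 8 cells with Folr2 (3.28%) and in 23.8% of those without it. A deeper cell shows more of every gene, and the part of depth in these shares was not tested.

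**Figure D2:**
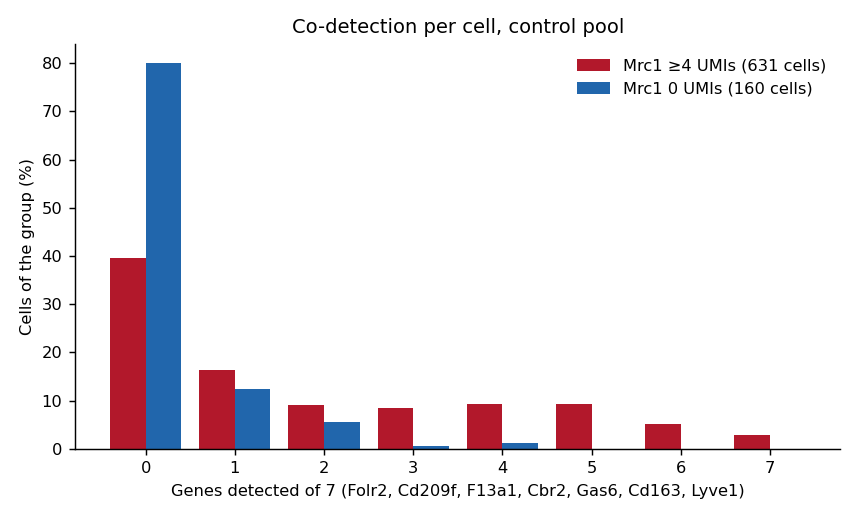
Bars give the percentage of Mrc1-high (631) and Mrc1-absent (160) control cells in which 0 to 7 of the genes Folr2, Cd209f, F13a1, Cbr2, Gas6, Cd163 and Lyve1 were found with at least 1 UMI. None of the 7 was found in 39.6% of Mrc1-high and 80.0% of absent cells.

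The division at 4 UMIs does not show how a gene's level lies along Mrc1, so all 1269 macrophages were ordered by their Mrc1 count. Folr2 had 10.0, 41.3, 20.03 and 31.4 UPM in cells with 0, 1, 2 and 3 Mrc1 UMIs, 59.7 UPM with 4 to 5, 99.2 UPM with 6 to 9 and 395 UPM with 10 or more. F13a1 went from 15.9 UPM with no Mrc1 UMI to 718 UPM with 10 or more, and Cd209f from 1.67 to 267 UPM. The high levels of these genes were those of the 281 cells with 10 or more Mrc1 UMIs, whose median depth was 8668 UMIs. At least 3 of the 7 genes were found in 58.4% of those cells, in 22.1% of cells with 6 to 9 Mrc1 UMIs and in 11.7% with 4 to 5.

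**Figure D3:**
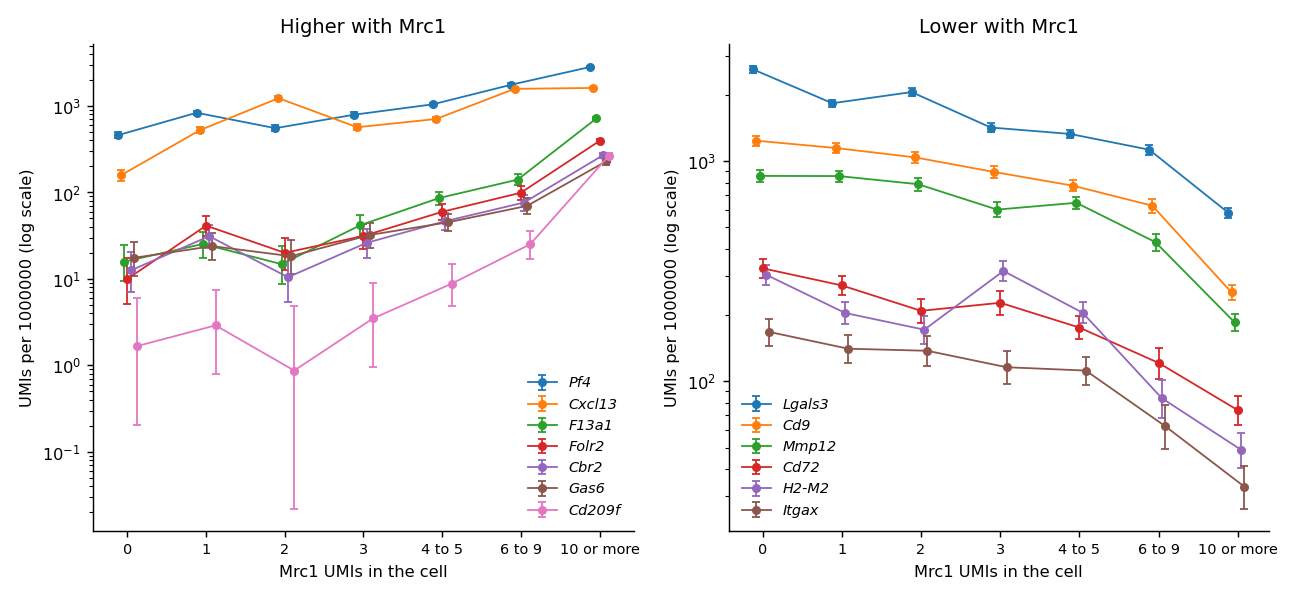
Levels in UMIs per 1000000 (log scale) of genes higher (left) and lower (right) with Mrc1, by the number of Mrc1 UMIs in the cell (160, 183, 147, 148, 196, 154 and 281 control macrophages from left to right), with exact 95% Poisson intervals. Folr2 and Cd209f are at their highest, 395 and 267 UPM, with 10 or more Mrc1 UMIs, and Cd9 is at its lowest there, 253 UPM.

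Several genes of the lower side went down over the whole range. Cd9 had 1239.8, 1148, 1042 and 894 UPM with 0, 1, 2 and 3 Mrc1 UMIs and 774, 628 and 253 UPM in the bins above. It was lower at each of the 6 steps, as were Itgax, Zmynd15 and Dcstamp. Lgals3 went from 2612 UPM with none to 583 UPM with 10 or more, while H2-M2 was as high with 3 Mrc1 UMIs (317 UPM) as with none (305 UPM). Cd207, the lectin langerin, had 82.6, 80.5, 99.3 and 81.9 UPM up to 3 UMIs, 42.1 and 28.5 UPM in the next bins and 2.05 UPM with 10 or more. The MHC class II gene H2-Aa and Cx3cr1, the fractalkine receptor, had no such slope: H2-Aa had 12226 UPM with none and 11698 UPM with 10 or more, and Cx3cr1 272 and 354 UPM.

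Cells with 1 to 3 Mrc1 UMIs, which the comparison leaves out, lay close to the absent cells. Between them 1326 genes were counted, 9 of which were past 1.5-fold on the higher side and 4 on the lower. The 10 genes with the highest ratio there, taken as most like Mrc1 over this step, were Retnla, Cxcl13, Vcam1, Areg, Tmtc2, Map3k5, Hmox1, Pf4, Susd6 and Pitpnc1. Cxcl13 had 759 UPM in cells with 1 to 3 UMIs, 4.79-fold more (4.13 to 5.58) than in cells with none, and the adhesion molecule Vcam1 129 UPM, 2.31-fold more (1.79 to 3.03). None of the 10 genes followed Mrc1 step by step. Retnla had 368 UPM with 2 Mrc1 UMIs and 7.84 UPM with 3, and Cxcl13 1232 and 568 UPM. Areg had 45.1 UPM with none, 142 UPM with 1 Mrc1 UMI and 37.8 UPM with 10 or more. Map3k5 had 102, 273 and 105 UPM in the same cells.

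Chemokines differed by kind. Of 21 listed, 14 were counted and 6 were past 1.5-fold, all on the higher side, and the median log2 ratio was 0.44. Cxcl13, which draws B cells, had 1333 UPM (1302 to 1365) against 159 UPM (137 to 183), an 8.41-fold excess (7.28 to 9.77). It was found in 36.3% of Mrc1-high and 11.2% of absent cells, with up to 369 and 56 UMIs in a cell, and 10 absent cells held 95.8% of the UMIs of that group. Its log2 ratio of 3.07 was 1.90 without the depth range. Ccl8, a ligand of chemokine receptors on monocytes and T cells, had 439 UPM (422 to 458) against 38.4 UPM (28.1 to 51.2), a ratio of 11.4 (8.55 to 15.7). After subtraction of the largest share of free RNA that the data allow, its log2 ratio of 3.52 became 7.30, Ccl8 being itself the gene that sets this share in absent cells.

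The monocyte-drawing chemokine Ccl7 had 2406 against 647 UPM, a 3.72-fold excess (3.46 to 4.01). Ccl12 had 636 against 201 UPM, and Ccl2 3712 against 1863 UPM, 1.99-fold more (1.91 to 2.08). Ccl2, Ccl7, Ccl8 and Ccl12 are close paralogs, and reads may be divided between them. The macrophage inflammatory chemokine Ccl4 had 2887 against 4068 UPM and the neutrophil chemokine Cxcl2 10193 against 12246 UPM, both short of 1.5-fold. Ccl4 was past the fold in 2 alternatives, with a log2 ratio of -0.66 at 5000 to 8000 UMIs and -0.62 with at least 20 C1q UMIs.

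Of 14 counted receptors of chemokines and growth factors (20 listed), 6 were past the fold, all on the higher side, and the median log2 ratio was 0.43. Csf1r, the receptor for the growth factor that macrophages depend on, had 768 against 428 UPM, 1.79-fold more (1.64 to 1.97). Nrp1, a co-receptor of semaphorins and VEGF, had 141 against 49.2 UPM. Ccr1 had 154 against 68.4 UPM, with a log2 ratio of 1.17 that was short of the fold at 8000 to 12000 UMIs, at 0.52. Ccr2, the receptor for Ccl2, had 244 UPM (230.4 to 257) and 208 UPM (183 to 235). Tgfbr2 had 259 against 165 UPM, 1.57-fold more (1.35 to 1.83), and was short of the fold at 5000 to 8000 UMIs, with a log2 ratio of 0.52.

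Among 10 counted growth factors (20 listed) 4 were higher and 2 lower by the same fold, and the median log2 ratio was 0.03. Bmp2, a bone morphogenetic protein, had 162 UPM (152 to 174) against 5.84 UPM (2.35 to 12.03) on 7 UMIs, a ratio of 27.8 (13.4 to 69.3). It was found in 24.9% and 3.75% of cells and was higher at each step along Mrc1, from 5.84 to 262 UPM. Its log2 ratio of 4.80 was 3.43 without the depth range. Pdgfc, a growth factor for fibroblasts, had 107 against 16.7 UPM, a ratio of 6.40 (4.10 to 10.6), and Hbegf, which binds the EGF receptor, 174 against 37.5 UPM, a ratio of 4.62 (3.43 to 6.38). The stress-induced factor Gdf15 was lower in Mrc1-high cells, at 212 against 411 UPM, but not at 8000 to 12000 UMIs, where its log2 ratio was 0.10.

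Igfbp4, which binds insulin-like growth factors, had 176 UPM (165 to 188) against 25.03 UPM (16.9 to 35.7), 7.03-fold more (4.89 to 10.5), and was found in 57.1% of Mrc1-high cells and in 24 of the 160 absent cells. Its log2 ratio of 2.81 became 1.93 when cells with 1 Mrc1 UMI joined the absent group. Bank1, a signalling adaptor best known from B cells, had 104 against 10.0 UPM, a ratio of 10.4 (5.90 to 20.2). The ubiquitin ligase Wwp1 had 119.5 against 22.5 UPM, 5.31-fold more (3.61 to 8.12). Shares of cells with Wwp1 were 45.8% and 12.5%.

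Retnla, which encodes the type 2 protein RELM-alpha, had 330.0 UPM against 12.5 UPM, a ratio of 26.4 (15.9 to 47.2), but 10 cells held 89.6% of its Mrc1-high UMIs and 1 cell alone 442 UMIs. Its log2 ratio of 4.72 was 3.27 at 5000 to 8000 UMIs, 6.67 at 8000 to 12000 UMIs and 6.84 with free RNA subtracted. Only 10.5% of Mrc1-high and 5.00% of absent cells held it. Of 17 genes listed for alternative activation 5 were counted, 2 of them higher (Retnla and Il4ra) and 1 lower (Fn1), with -0.12 as the median log2 ratio. The lectin Mgl2 had 512 UPM (493 to 532) and 556 UPM (514 to 599), with overlapping intervals, while its paralog Clec10a, under the minimum, had 67.6 against 5.01 UPM.

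Mmp9, the gelatinase B of neutrophils and macrophages, had 179 UPM (167 to 190.5) in Mrc1-high cells, 22.3% of which held it, with up to 29 UMIs in a cell. No UMI of it was found in the 160 absent cells, where the exact interval reaches up to 3.08 UPM. With 3 counts as the floor over the group its ratio was 71.4, which is not a lower limit. Of the 11 listed neutrophil markers Mmp9 alone was counted. Ly6g and Cxcr2 had no UMI in either group, and S100a8 had 3.43 and 3.34 UPM. The summed level of the 11 markers was 242 against 29.2 UPM, with 2 and 6 of the genes at 0. Most of the Mrc1-high sum was Mmp9, but the rest of it was also larger than the sum in absent cells.

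Mmp12, the macrophage elastase, lay on the other side, with 382 UPM (366 to 399) against 858 UPM (806 to 912), 2.24-fold less (2.08 to 2.42). It was found in 25.04% of Mrc1-high and 58.1% of absent cells. Among 7 counted matrix genes and their enzymes (19 listed) 2 were higher (F13a1 and Mmp9) and 2 lower (Mmp12 and Fn1), and the median log2 ratio was 0.09. Fn1, fibronectin, had 202 against 375 UPM and was found in only 8.08% and 14.4% of cells. Without the depth range its log2 ratio of -0.89 turned to 0.57. It was -0.43, short of the fold, with cells of 1 Mrc1 UMI added to the absent group.

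Complement genes other than C1q were higher in 4 of 7 counted (17 listed), with Itgax, a chain of a complement receptor, lower and a median log2 ratio of 0.61. Properdin (Cfp), which sustains the alternative pathway, had 199 against 78.4 UPM, 2.54-fold more (2.05 to 3.17). C3 had 100.5 UPM (92.1 to 109) against 46.7 UPM (35.3 to 60.7), and its log2 ratio of 1.10 was 0.57 without the depth range, short of the fold. The receptor for the C3a fragment, C3ar1, had 509 against 334 UPM and missed the fold in several alternatives, with a log2 ratio of 0.54 without the depth range.

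For the uptake of dying cells 3 of 9 counted genes (18 listed) were higher, 1 (Anxa1) was lower, and the median log2 ratio was 0.27. The receptor tyrosine kinase Mertk, which binds Gas6, had 108 against 54.2 UPM and its relative Axl 168 and 163 UPM. The scavenger receptor Cd36 had 476 against 160.2 UPM, 2.97-fold more (2.56 to 3.46), while the macrophage marker Cd68 had 511 UPM (491 to 530.2) and 535 UPM (494 to 578).

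Haem and iron genes were higher in 4 of 7 counted (16 listed) and lower in none, and the median log2 ratio was 0.90. Hmox1, which degrades haem, had 523 UPM (503 to 542) against 143 UPM (122 to 166), 3.66-fold more (3.14 to 4.30). With cells of 1 Mrc1 UMI added to the absent group its log2 ratio of 1.87 became 1.16. Blvrb, a biliverdin reductase, had 278 against 149 UPM. Transferrin (Trf) had 631 against 296 UPM and the iron transporter Slc11a2 120.1 against 56.7 UPM, whereas the ferritin genes Fth1 (12656 and 16853 UPM) and Ftl1 (8336 and 9095 UPM) were short of 1.5-fold. Of the antioxidant genes under the factor Nrf2, 4 of 10 counted (17 listed) were higher and none lower, with 0.46 as the median. They include the metallothioneins: Mt1 had 4889 against 2127 UPM and Mt2 465 against 171 UPM. The log2 ratio of Mt2, 1.44, was 2.28 at 5000 to 8000 UMIs and 0.73 at 8000 to 12000 UMIs.

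Lipid genes were divided. The cholesterol exporter Abca1 had 872 against 309.5 UPM, 2.82-fold more (2.53 to 3.14), the lipoprotein Apoe 15814 against 8903 UPM, 1.78-fold more (1.74 to 1.81), and the lipid transfer protein Pltp 536 against 289 UPM. Lgals3 and Cd9, which mark lipid-associated macrophages, were lower, and Trem2 of the same kind had 377 and 442 UPM. In all 3 were higher and 2 lower of 10 counted (22 listed), and the median log2 ratio was -0.15.

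**Figure D4:**
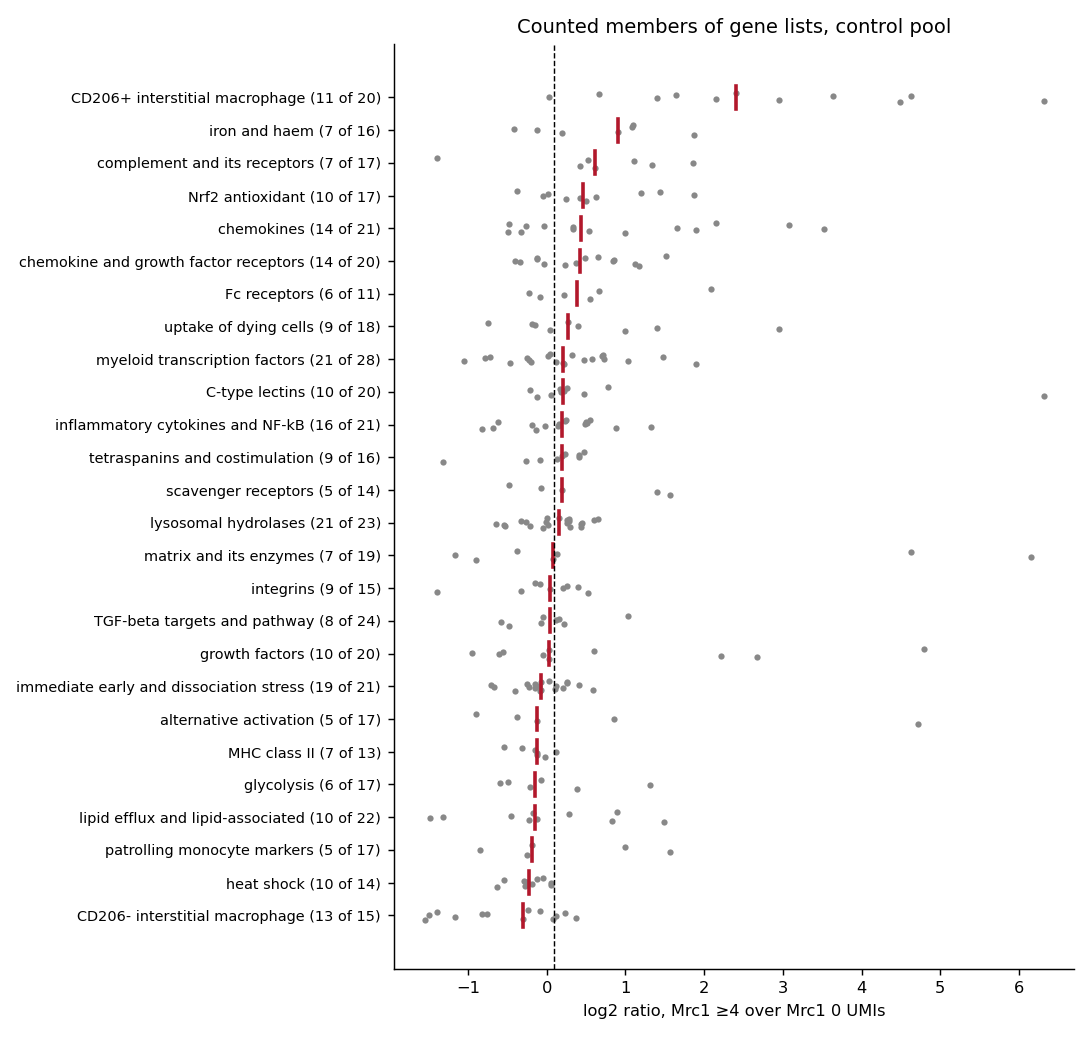
Each grey point is the log2 ratio (Mrc1-high over Mrc1-absent control cells) of 1 counted member of a gene list with at least 5 counted members, red marks are list medians, and the dashed line is the median of all counted genes, 0.09. The list for CD206+ interstitial macrophages has the median farthest to the right, 2.41, and that for CD206- cells the one farthest to the left, -0.30.

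Among transcription factors 6 of 21 counted (28 listed) were higher and 3 lower, and the median log2 ratio was 0.21. Maf, which helps to maintain the macrophage state, had 277 UPM (263 to 292) against 74.3 UPM (59.6 to 91.4), 3.73-fold more (3.01 to 4.68), and was found in 67.0% and 28.1% of cells. Bach1, a repressor that haem removes from DNA, had 411 against 148 UPM, 2.79-fold more (2.39 to 3.27). Cebpd (119 against 58.4 UPM), Runx1 (671 against 405 UPM), Id2 (668 against 405 UPM) and Tcf4 (291 against 179 UPM) were also higher, Runx1 not past the fold at 8000 to 12000 UMIs, with a log2 ratio of 0.54. Klf2 had 159 against 331 UPM, 2.08-fold less (1.84 to 2.35), Runx3 64.7 against 112 UPM and Bhlhe40 85.2 against 140.2 UPM. Bhlhe40 was past the fold in only 13 of 17 alternatives. Its log2 ratio was -0.13 without the depth range and -0.44 at 8000 to 12000 UMIs.

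Maf proteins bind DNA elements whose core reads TGCTGA, or TCAGCA on the other strand. RefSeq promoter sequences of GRCm38.p6, 250 bases before and 50 bases after the start, were searched for either, which covers both strands. The motif was chosen after the ratio of Maf was known, so the shares are a description of these genes only. The table had an entry for 11 of the 15 highest genes, of which 5 held the motif (45.5%), and for 10 of the 15 lowest, of which 4 held it (40%). Over all 27025 genes with an entry the share was 21.7%. Promoters of Cbr2 and Cxcl13 from the higher side and of H2-M2 from the lower side are shown with the motif in capitals, so that the letters behind these counts can be seen. A match describes the sequence and does not show binding.
Cbr2, chr11:120731972-120732271, minus strand: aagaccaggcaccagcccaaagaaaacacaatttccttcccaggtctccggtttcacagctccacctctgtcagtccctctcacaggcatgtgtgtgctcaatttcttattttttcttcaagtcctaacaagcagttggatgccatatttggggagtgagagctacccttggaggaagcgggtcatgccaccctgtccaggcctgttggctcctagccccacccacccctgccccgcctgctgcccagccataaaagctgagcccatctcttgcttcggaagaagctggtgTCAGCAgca
Cxcl13, chr5:95956689-95956988, plus strand: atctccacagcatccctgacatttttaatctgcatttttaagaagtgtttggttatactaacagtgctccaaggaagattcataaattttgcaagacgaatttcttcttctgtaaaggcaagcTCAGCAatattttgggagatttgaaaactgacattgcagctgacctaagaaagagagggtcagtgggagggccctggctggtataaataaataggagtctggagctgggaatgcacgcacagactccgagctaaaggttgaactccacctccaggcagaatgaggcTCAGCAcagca
H2-M2, chr17:37483505-37483804, minus strand: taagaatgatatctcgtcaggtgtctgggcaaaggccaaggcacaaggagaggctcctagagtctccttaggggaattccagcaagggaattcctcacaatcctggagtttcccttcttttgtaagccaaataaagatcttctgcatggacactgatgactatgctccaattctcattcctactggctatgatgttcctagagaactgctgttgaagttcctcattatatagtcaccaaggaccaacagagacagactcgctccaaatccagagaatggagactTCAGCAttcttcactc

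On the lower side, Lgals3, a lectin that binds beta-galactosides, had 937 UPM (911 to 964) in Mrc1-high cells and 2612 UPM (2521 to 2705) in absent cells, 2.79-fold less (2.66 to 2.92). Mrc1-high cells held a median of 4 and at most 153 UMIs of it, absent cells a median of 13 and at most 167. Cd9 had 499 UPM (479.6 to 518) against 1239.8 UPM (1178 to 1304), 2.49-fold less (2.33 to 2.65), with medians of 2 and 7 UMIs per cell. The ranges of single cells overlapped for both genes.

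H2-M2, a non-classical MHC class I gene (ENSMUSG00000016283, chromosome 17, 37480851 to 37483554), had 104 UPM (95.7 to 113) against 305 UPM (275 to 338), 2.93-fold less (2.56 to 3.35). Only 15.8% and 25.6% of cells held it, and 10 absent cells held 57.9% of the UMIs of that group. Cd72, an inhibitory receptor shared with B cells, had 116 UPM (107 to 125) against 326 UPM (295 to 360.2), 2.82-fold less (2.48 to 3.21), in 46.1% and 65.6% of cells. Itgax, the integrin chain CD11c, had 63.9 UPM (57.3 to 71.2) against 168 UPM (145 to 193), 2.62-fold less (2.19 to 3.13), in 25.99% and 52.5% of cells. Its log2 ratio of -1.39 was -0.77 without the depth range.

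The other genes among the 15 lowest differed by 2.01-fold to 2.73-fold apart from Glipr1, which was at the end of the list with 253 against 506 UPM. They were Zmynd15, Dcstamp, a membrane protein needed for cell fusion, Rgcc, the actin-capping protein Capg, Apbb2, Tppp3 and the leukocyte protein Lsp1. Dcstamp and Rgcc were short of 1.5-fold without the depth range, with log2 ratios of -0.45 and -0.06.

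Several of these genes were also found outside the macrophages. Of the 190 cells with at most 1 C1q UMI, mostly Tgfbr2-KO, 97.4% held Lgals3, 89.5% Lsp1, 75.3% Capg, 55.8% Klf2 and 42.1% Tppp3, against 8.42% for Cd72, 8.42% for Mmp12 and 2.11% for H2-M2. With at least 20 C1q UMIs required, which left 621 and 144 cells, Lgals3 had a log2 ratio of -1.40, Capg of -1.10, Klf2 of -1.01 and Tppp3 of -0.92.

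Of the 15 genes listed for CD206- interstitial macrophages, 13 were counted, 6 were lower and none higher, and the median log2 ratio was -0.30. Besides H2-M2, Cd72, Itgax and Mmp12, the lower ones were Il1b, with 3031 UPM (2984 to 3079) against 5374 UPM (5244 to 5507), 1.77-fold less (1.72 to 1.83), and the adhesion molecule Cadm1, with 135 against 227 UPM. Cadm1 missed the fold with cells of 1 Mrc1 UMI added to the absent group, at a log2 ratio of -0.55. Cd207 and Tmem119 were under the minimum, Cd207 with 20.4 against 82.6 UPM, 4.06-fold less (3.05 to 5.38), on 107 and 99 UMIs. Ccr2, Cx3cr1, Cd14 and Col14a1 of this list lay above their levels in absent cells, all short of 1.5-fold.

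None of 7 counted MHC class II genes (13 listed) was past 1.5-fold, and their median log2 ratio was -0.12. Cd74, the invariant chain, had 23950.4 and 29673 UPM, H2-Ab1 9377 and 10225 UPM and H2-Aa 12029 and 12226 UPM. The protease Ctss, which trims the invariant chain, had 1855 and 2713 UPM, and its log2 ratio of -0.55 was short of the fold, but past it at 5000 to 8000 UMIs (-0.65) and with at least 6 Mrc1 UMIs (-0.74). Lysosomal enzymes had a median of 0.15, 2 higher and 1 lower among 21 counted (23 listed).

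Inflammatory genes were mixed, 2 higher and 3 lower among 16 counted (21 listed), around a median log2 ratio of 0.20. The anti-inflammatory cytokine Il10 had 167 against 66.7 UPM, 2.51-fold more (1.99 to 3.20), and the interleukin 1 antagonist Il1rn 519 against 282 UPM, 1.84-fold more (1.64 to 2.07). Tnf had 473 against 756 UPM, 1.60-fold less (1.48 to 1.73), but was short of the fold without the depth range, at a log2 ratio of -0.37. Tnfaip2 had 236 against 364 UPM.

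Genes of immediate early response and dissociation stress had a median of -0.07, with 1 of 19 counted higher and 2 lower, and heat shock genes -0.22, with none of 10 higher and 1 lower. Their part in the other ratios was not tested. Among 8 counted TGF-beta targets and pathway genes (24 listed) Nrros, which anchors latent TGF-beta, was past the fold, with 326 against 159 UPM, and no other. Of 25 interferon genes 3 were counted, none past the fold.

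Smaller families are given by their counts. Over all counted genes 19% were higher and 5.38% lower, and counts of a few genes near these shares do not set a family apart. Fc receptors had 2 of 6 counted higher, among them Fcrls with 371 against 87.6 UPM. The membrane-spanning 4A family had 3 of 4 higher, the close paralogs Ms4a6b, Ms4a6c and Ms4a6d, by 1.54-fold to 1.79-fold. C-type lectins had 2 of 10 higher, scavenger receptors 2 of 5, and integrins and tetraspanins each 1 of 9 lower. None of 3 genes of Toll-like receptors and adaptors and none of 2 cell cycle genes was past the fold. In glycolysis Pfkfb3 was higher, with 131 against 52.6 UPM, and Gapdh lower, with 424 against 637 UPM, of 6 counted. Lists named for clusters of an earlier analysis of these cells had 3 of 3 counted higher for a Cd209f-rich cluster, 3 of 3 for a Kazn-rich cluster, with Kazn at 239.6 against 105 UPM, and 1 of 3 lower for a cluster rich in Fn1.

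Markers of other cells were low on both sides. T and NK cell markers summed to 64.3 and 103 UPM over 12 genes, most of it Il7r, with 8 and 9 of the genes at 0, among them Cd3e. Structural lung markers summed to 96.1 and 90.1 UPM, and alveolar macrophage markers other than Mrc1 to 68.9 and 74.3 UPM, with no Marco UMI. B and plasma cell markers summed to 163 and 130.1 UPM, most of it Ighm, and Pax5 had no UMI in either group. At most 1.19% of the UMIs of Mrc1-high cells and 1.02% of those of absent cells could be free RNA.

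Monocyte genes did not all lie the same way. The summed level of the 18 classical monocyte markers was 14325 UPM in Mrc1-high and 11890.3 UPM in absent cells, most of it Lyz2 (13339.9 and 10980.1 UPM), which macrophages also express. Plac8 and Ly6c2, chosen after their values were seen and both under the minimum of a counted gene, lay the other way. Plac8 had 2.09 against 87.6 UPM and Ly6c2 3 UMIs against 8 in all cells of the groups (0.571 and 6.67 UPM), both more in the absent group. Plac8 was found in 6 of the 160 absent cells. Of the 18 classical markers 4 were counted, F13a1 higher and Fn1 lower, with a median log2 ratio of 0.26, and of 17 patrolling monocyte markers 5, with 2 higher (Cd36 and Dusp16) and 1 lower (Gngt2). Of 18 dendritic cell markers 2 were counted and Tcf4 was higher. The part of such cells in the ratios was not tested beyond the stricter C1q minimum given above.

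The same division was then made in the Tgfbr2-KO pool, which the choice of cells had not used. There 676 of 1181 macrophages in the depth range were Mrc1-high, or 57.2% (54.4 to 60.1), and 181 Mrc1-absent, or 15.3% (13.3 to 17.5), with medians of 8364 and 8281 UMIs. The depth range kept only 52.9% of Tgfbr2-KO macrophages, and 39.5% lay above it. In the control pool it kept 72.6%, and 15.4% lay above it. Without the range 1207 of 2233 Tgfbr2-KO macrophages were Mrc1-high and 429 Mrc1-absent. Of 1649 counted genes 372 lay past 1.5-fold on the higher side, which is 22.6%, and 287 on the lower, which is 17.4%, together 40%. All 15 of the highest control genes were counted there, and all were past 1.5-fold on the higher side. Of the 15 lowest, 11 were counted and 10 were past 1.5-fold on the lower side. Of the 286 genes higher in the control pool 208 (72.7%) were counted and past the fold in the same direction, and of the 81 lower genes 52 (64.2%).

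**Figure D5:**
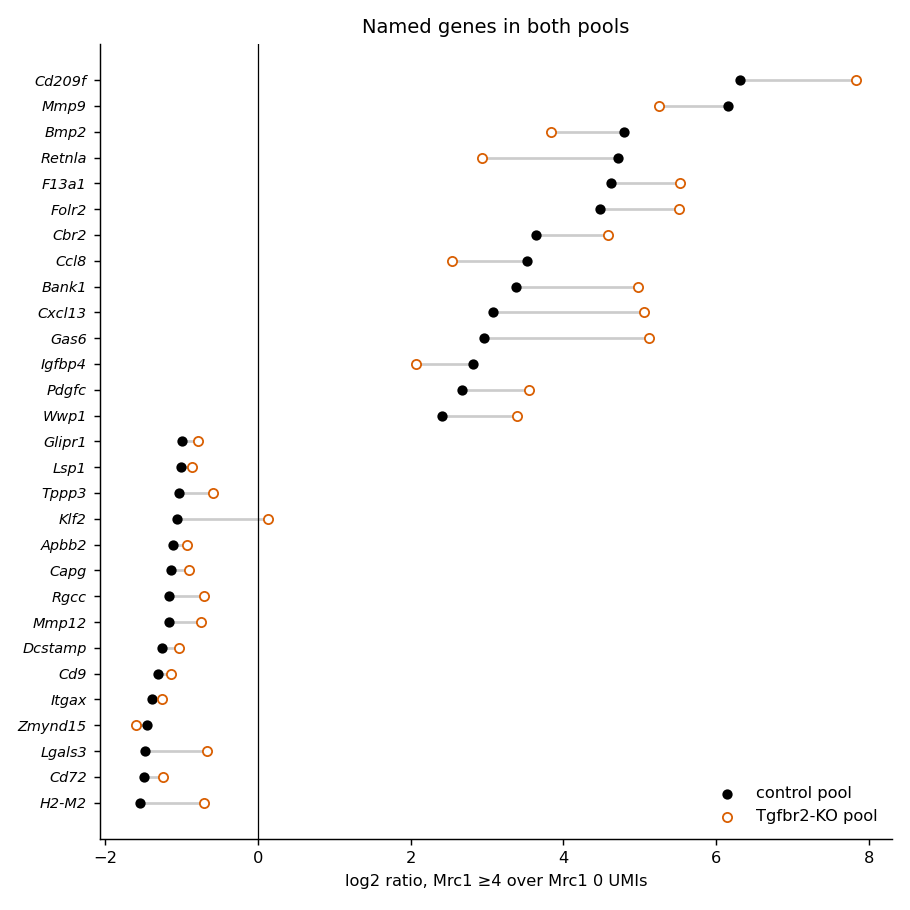
Log2 ratio of Mrc1-high over Mrc1-absent cells for 14 of the 15 highest and for the 15 lowest genes of the control pool (black), with the ratio of the same genes in the Tgfbr2-KO pool (orange). All 14 of the highest genes lie right of 2 in both pools, and of the lowest genes Klf2 alone lies on the other side of 0 in the Tgfbr2-KO pool, at 0.13.

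Folr2 had 419 against 9.15 UPM in the Tgfbr2-KO pool, a ratio of 45.8 (27.2 to 83.8), and F13a1 662 against 14.4 UPM, a ratio of 46.0 (30.3 to 73.5). Gas6 had 205 against 5.88 UPM there, a log2 ratio of 5.12 where the control pool had 2.96. Cxcl13 had 717 against 21.6 UPM, a log2 ratio of 5.06 where the control pool had 3.07. Retnla (1939 against 254 UPM) and Ccl8 (2870.0 against 494 UPM) had higher levels in both Tgfbr2-KO groups than in the matching control groups, with log2 ratios of 2.93 and 2.54. Bmp2 had 159 against 11.1 UPM and Igfbp4 170.2 against 40.5 UPM, with lower ratios than in the control pool. The difference between pools was tested for none of these genes.

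On the lower side Cd72 had 227 against 535 UPM, 2.36-fold less (2.16 to 2.58), and Cd9 247 against 545 UPM, 2.20-fold less (2.02 to 2.40). Itgax had 55.6 against 133 UPM, 2.39-fold less (1.99 to 2.86), and Lgals3 895 against 1417 UPM, 1.58-fold less (1.504 to 1.66). Klf2 had 219 and 200.1 UPM, with a ratio of 1.09 (0.963 to 1.24). Igf1, which was level in the control pool, had 300.9 against 89.6 UPM, 3.36-fold more (2.82 to 4.03), and Mgl2 1212 against 305 UPM, 3.97-fold more (3.61 to 4.37).

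The absent groups of the pools were not alike in other genes. Plac8 had 749 UPM and Ly6c2 424 UPM in Tgfbr2-KO absent cells, against 87.6 and 6.67 UPM in control absent cells. The summed level of the 18 classical monocyte markers was 6654 UPM in Tgfbr2-KO absent cells against 11890.3 UPM in control absent cells. Most of both sums was Lyz2, the gene that drives LyzM-Cre, at 4696 and 10980.1 UPM. The rest of the sum, which includes Plac8 and Ly6c2, was larger in Tgfbr2-KO absent cells. Of the interferon list, 11 of 25 were counted in the Tgfbr2-KO pool, 8 were lower in Mrc1-high cells and none higher, around a median log2 ratio of -1.57. Of the glycolysis list, 8 of 11 counted were lower and 1 higher, around a median of -0.95. Free RNA could make up at most 9.62% of the UMIs of Mrc1-high Tgfbr2-KO cells and at most 1.66% of those of absent ones. Kazn was the gene that set this limit in both groups. The part of these values in the ratios of the Tgfbr2-KO pool was not tested.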

How the data were processed

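The authors deposited UMI counts per gene and barcode for 1 library that holds both pools, made with Cell Ranger 8.0.0 per the file headers and aligned to GRCm38 per the submitters' processing notes, which also name Seurat 5.1.0. The annotation version and the tool that assigned hashtags are not given in the sources used here. The deposited hashtag table gives a posterior probability per cell as a fraction and the log10 of each hashtag count plus 1, per the file headers and the values. All 4887 called cells were found among the 1172636 barcodes of the matrix. The assignment as deposited was used, which left out 96 multiplets, 66 unassigned and 54 blank cells; doublets within a pool were not sought.

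Counts were summed per group with Python 3.11.15, numpy 2.4.6, pandas 2.3.3 and scipy 1.17.1, divided by the gene UMIs of the group and compared as ratios, without a test, since each genotype is 1 pool of 5 mice. Script steps were tested on simulated data. Genes with no UMI in a group were set to a floor of 3 counts. Named genes are the 15 highest and 15 lowest counted genes, without sex-linked genes and unnamed gene models, and in each of 40 lists the highest, the lowest and the 4 with the most UMIs. Other list members are given as members. Results for a few genes, 1 of the 15 highest among them, are not reported here. Most like Mrc1 are the 10 genes with the highest ratio between cells with 1 to 3 and 0 Mrc1 UMIs. Members and lists were chosen with earlier results of these data known. Thinning drew 5000 UMIs per cell with a fixed seed. Free RNA was profiled from 70147 barcodes with 10 to 100 UMIs. Alternatives changed the depth range, depth, Mrc1, C1q and mitochondrial limits, hashtag probability, scaling, weighting of cells, free RNA, the minimum of a counted gene, the fold and cycling cells.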

Additional observations from a re-analysis of the deposited data

Results flagged for a closer look

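In 4 genes the ratio of Mrc1-high over Mrc1-absent cells lay past 1.5-fold in opposite directions in the control and the Tgfbr2-KO pool. With 1 pool per genotype these differences were not tested. Gdf15, a stress-induced factor of the TGF-beta family, had 212 against 411 UPM in control cells (log2 ratio -0.95) and 473 against 113 UPM in Tgfbr2-KO cells (2.06). Hspa1a, an inducible heat shock protein with the near-identical copy Hspa1b, had 199 against 309 UPM in control cells (-0.63) and 687 against 190 UPM in Tgfbr2-KO cells (1.86).

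The complement protein C3 had 100.5 against 46.7 UPM in control cells (1.10), on 56 UMIs in the absent group, and 137 against 341 UPM in Tgfbr2-KO cells (-1.32). Ms4a6c, of the membrane-spanning 4A family, had 294 against 186 UPM in control cells (0.66) and 327 against 524 UPM in Tgfbr2-KO cells (-0.68). Control ratios of all 4 genes were short of 1.5-fold or turned in at least 1 alternative, as given with the alternatives. Among monocyte genes Plac8 and Ly6c2 were more abundant in the Tgfbr2-KO than in the control absent group. The summed level of the 18 classical monocyte markers was lower there, at 6654 against 11890.3 UPM, but most of it was Lyz2. Without Lyz2 the sum was larger in the Tgfbr2-KO absent group. The part of these genes was not tested.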

How the results depend on the processing

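The 15 highest genes stayed past 1.5-fold in the same direction in all 254 values from 17 alternatives (Retnla has none where cells with Retnla were left out, an alternative chosen after seeing the data), and the 15 lowest in 253 of 255. The exceptions were Dcstamp and Rgcc without the depth range. Some of these values could not fail, since a changed minimum of a counted gene leaves each ratio as it was. Trimmed mean scaling moved every log2 ratio by the same 0.03. The genes were also chosen as the extremes of the same cells, so the tally is a description. Counts of genes moved with the limits. Without the depth range 53 genes were lower in the control pool. With at least 50 UMIs and 50 UPM, 501 were higher and 147 lower in the control pool, and 589 and 470 in the Tgfbr2-KO pool. With at least 200 of each, 146 were higher in the control pool, and 196 were higher and 141 lower in the Tgfbr2-KO pool. At 2-fold, 116 and 15 genes passed in the control pool and 177 and 90 in the Tgfbr2-KO pool. In the other alternatives the control counts were 245 to 389 higher and 55 to 120 lower, within 1.5 times of the values reported. Fewer genes pass stricter limits by construction; for the depth range the cause was not tested. The sign turned for Gdf15 (0.10) and Hspa1a (0.20) at 8000 to 12000 UMIs, where 52 absent cells remain, and for Fn1 (0.57) without the depth range. Hspa1a was also short of the fold thinned to 5000 UMIs, at -0.57, and Ms4a6c at 8000 to 12000 UMIs, at 0.39. No replicate could be left out and no paired analysis was possible because each genotype is 1 pool in 1 library. Depth limits genes with few absent UMIs: over the 4 depth alternatives log2 ratios ran from 3.27 to 6.67 for Retnla, 3.62 to 6.63 for Lyve1, 3.43 to 5.81 for Bmp2, 4.45 to 6.89 for Cd209f and 4.92 to 7.22 for Mmp9. Beyond those given with the genes, further ratios moved by over 1.5 times, given as reported and then in the alternative. These were at 5000 to 8000 UMIs Bank1 (3.38 and 4.002), Pdgfc (2.68 and 1.95), Lgals3 (-1.48 and -2.12), Rgcc (-1.16 and -1.81), Tppp3 (-1.04 and -1.64), Cd207 (-2.02 and -3.21), Bhlhe40 (-0.72 and -2.07), Ccr1 (1.17 and 1.89), Il10 (1.33 and 1.95) and Fn1 (-0.89 and -2.72). At 8000 to 12000 UMIs they were Cbr2 (3.64 and 4.35), Bank1 (3.38 and 2.78), Pdgfc (2.68 and 3.57), Cd207 (-2.02 and -1.20) and Hbegf (2.21 and 3.08). Further ones were, thinned to 5000 UMIs F13a1 (4.63 and 5.26), with at least 3 Mrc1 UMIs Cd207 (-2.02 and -1.40), with at least 6 H2-M2 (-1.55 and -2.33), Rgcc (-1.16 and -2.10), Cd207 (-2.02 and -2.92) and Fn1 (-0.89 and -1.60). With Mrc1 0 or 1 UMI as the absent group they were Cbr2 (3.64 and 2.80), Cxcl13 (3.07 and 1.91) and Lyve1 (6.19 and 4.71). Cx3cr1 and Pmepa1, short of the fold as reported, were past it in 1 alternative each.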
